A study of Homo sapiens with 6 samples.

Results

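The LIN28 proteins, the let-7 family of microRNAs and the targets that let-7 holds down form a regulatory loop of fetal and cancer cells, and 8 genes of that loop were examined here for where their transcripts end. The members were LIN28A and LIN28B, IGF2BP1, IGF2BP2 and IGF2BP3, HMGA1 and HMGA2, and DICER1, out of 20046 protein-coding genes. A peak of poly(A) 3′-seq reads belonged to a member when its summit lay in the annotated gene body or up to 4000 bp past the 3′ end of the gene. By this rule the members held 127 of the 138277 peaks that passed the study's own cutoff of −log10 q of at least 5, and 159 of all 200023 peaks in the list.

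The cells were IMR-32, an established human neuroblastoma (NB) line with amplified MYCN. The 6 libraries fell into 3 groups of 2 biological replicates, namely a vehicle group (DMSO) and groups exposed to THZ531 at 400 nM, which lasted 2 h in one and 6 h in the other. This compound binds the transcriptional kinases CDK12 and CDK13 covalently and inhibits them. All groups carried the same genotype, and the RNA was polyadenylated. The authors merged their samples before peak calling, presumably these 6 libraries, and deposited 1 list, so no value below separates DMSO from THZ531, no replicate error exists, and the depth of each library is unknown. The list gives no strand, so a peak was read on the strand of the member gene that held it. By transcript ends the cells matched the NB label, which does not single out IMR-32. Of NB lineage genes, 8 of 8 had a transcript-end peak (tallest PHOX2A at 123 reads, lowest DBH at 19). Of genes of other lineages, 2 of 6 had one (MYOD1 at 10 reads and EPCAM at 7), and PTPRC, ALB, PECAM1 and KRT5 had none. The share over all protein-coding genes was 64.0%.

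LIN28A and LIN28B are RNA-binding proteins that block the maturation of let-7 precursors. Mature let-7, cut from its hairpin by DICER1, lowers the output of mRNAs that carry matches to its seed in their 3′ UTRs, and the LIN28, IGF2BP and HMGA genes are long-known examples of such mRNAs. Cleavage and polyadenylation (CPA) at an early site in a 3′ UTR gives an mRNA that lacks the matches further down, while CPA inside an intron gives a truncated transcript. NB with amplified MYCN is known for high LIN28B, and the IGF2BP and HMGA proteins are expressed in the embryo and again in many tumours.

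All 8 mature let-7 microRNAs named let-7a to let-7i in RefSeq (GRCh38.p14) share the same seed, bases 2 to 8, shown in capitals in 3 of them because every match below pairs with these bases.
let-7a-5p: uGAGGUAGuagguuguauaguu
let-7d-5p: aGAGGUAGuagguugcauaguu
let-7i-5p: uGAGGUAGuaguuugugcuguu

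A site was a match to bases 2 to 8 (CTACCTC, called 7mer-m8), a match to bases 2 to 7 followed by A (TACCTCA, 7mer-A1), or both (8mer), on the mRNA strand of the 3′ UTR of the canonical transcript. The members held 25 sites in 27.69 kb of 3′ UTR, or 0.903 per kb, against 0.111 per kb over the 3′ UTRs of all genes. Of the members, 8 of 8 had a site, against 15.8% of the 19538 genes with a 3′ UTR. The genes were chosen as let-7 targets, so these counts describe the choice. A match is a description of the sequence and does not show binding. HMGA2 had 7 sites, LIN28B and IGF2BP1 had 5 each, IGF2BP2 had 3, DICER1 had 2, and LIN28A, IGF2BP3 and HMGA1 had 1 each. Only 11 of the 19538 3′ UTRs had 5 or more.

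The sites of LIN28B and IGF2BP1 are shown on the mRNA strand in GRCh38 coordinates, because peaks fell between them in both 3′ UTRs. Capitals mark the bases that pair with the seed and, where present, the closing A.
LIN28B, 51 bp after the stop codon, chr6:105078805-105078834: ttcctttacccggttgcaaagtCTACCTCA
LIN28B, 2478 bp, chr6:105081232-105081261: tattatgtactgatgatagtaaCTACCTCt
LIN28B, 2660 bp, chr6:105081414-105081443: ttactctgtttacagcaaaaggCTACCTCA
LIN28B, 4099 bp, chr6:105082853-105082882: agcttgaaaatgatggtgttgaCTACCTCt
LIN28B, 4283 bp, chr6:105083037-105083066: attatcctgtgtagtatttagatTACCTCA
IGF2BP1, 1639 bp, chr17:49051054-49051083: gcaatgctgtgtgcgaagtaaaCTACCTCA
IGF2BP1, 1657 bp, chr17:49051072-49051101: taaactacctcaaggtatgaagtTACCTCA
IGF2BP1, 4276 bp, chr17:49053691-49053720: tgggaaccagcagtgctagtaaCTACCTCA
IGF2BP1, 4930 bp, chr17:49054345-49054374: gctacgagtataaatggattaaCTACCTCA
IGF2BP1, 5575 bp, chr17:49054990-49055019: ccccatttcacttttgttttatCTACCTCt

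Peaks were spread unevenly over the 8 genes. LIN28B held 36, IGF2BP3 33, IGF2BP1 26, DICER1 19, IGF2BP2 8, HMGA1 3, and LIN28A and HMGA2 1 each. By class, 19 peaks lay at an annotated transcript end (a window that reached from 200 bp before it to 600 bp past it), 13 in other exonic sequence, 90 in introns and 5 downstream of the gene. The intronic share was 70.9% (exact 95% interval 62.1% to 78.6%, counting error only), against 63.3% of the 123730 peaks of detected genes, those with a transcript-end peak. The background lies inside the interval. In all, 6 of the 8 members had at least 1 transcript-end peak, against 64.0% of all protein-coding genes. LIN28A and HMGA2 had none. Peaks closer together than 200 bp were rare, since merging them left 125.

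**Figure D1:**
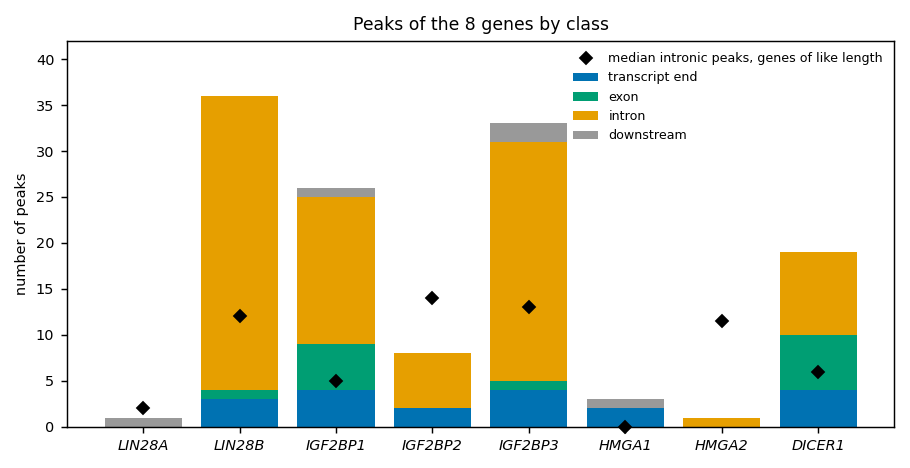
Number of peaks in each of the 8 genes (bars, y axis), coloured by class, with black diamonds at the median number of intronic peaks over detected genes within 25% of the same length. LIN28B (32 intronic peaks), IGF2BP1 (16), IGF2BP3 (26) and DICER1 (9) stand above their diamonds, LIN28A (0), IGF2BP2 (6) and HMGA2 (1) stand below, and HMGA1 (0) is level with its own.

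A tandem 3′ UTR peak was one whose 3′ edge, the side nearest the cleavage site, lay after the stop codon in the last exon of the canonical transcript or up to 4000 bp past the gene. The members held 22 such peaks, of which 15 had their 3′ edge inside the annotated 3′ UTRs and 7 past the gene end. Among the 7, 1 peak of HMGA1 and 1 of IGF2BP3 began before the annotated end and ran across it. At least 2 tandem peaks were present in 5 of the 8 members, against 45.0% of the 19538 genes with a 3′ UTR. Leaving out peaks inside a gene of the opposite strand reduced the 22 to 15 and the 5 members to 3. The height of a peak is given as the number of extended reads over its summit, solved from the deposited fold and p-value, with an exact 95% Poisson interval for counting error. No peak of the list was above 200 reads. That is the most that reads extended to 100 bp allow when 1 read is kept per position and strand. The height is therefore not an expression level, and its interval does not cover how often a site was used.

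**Figure D2:**
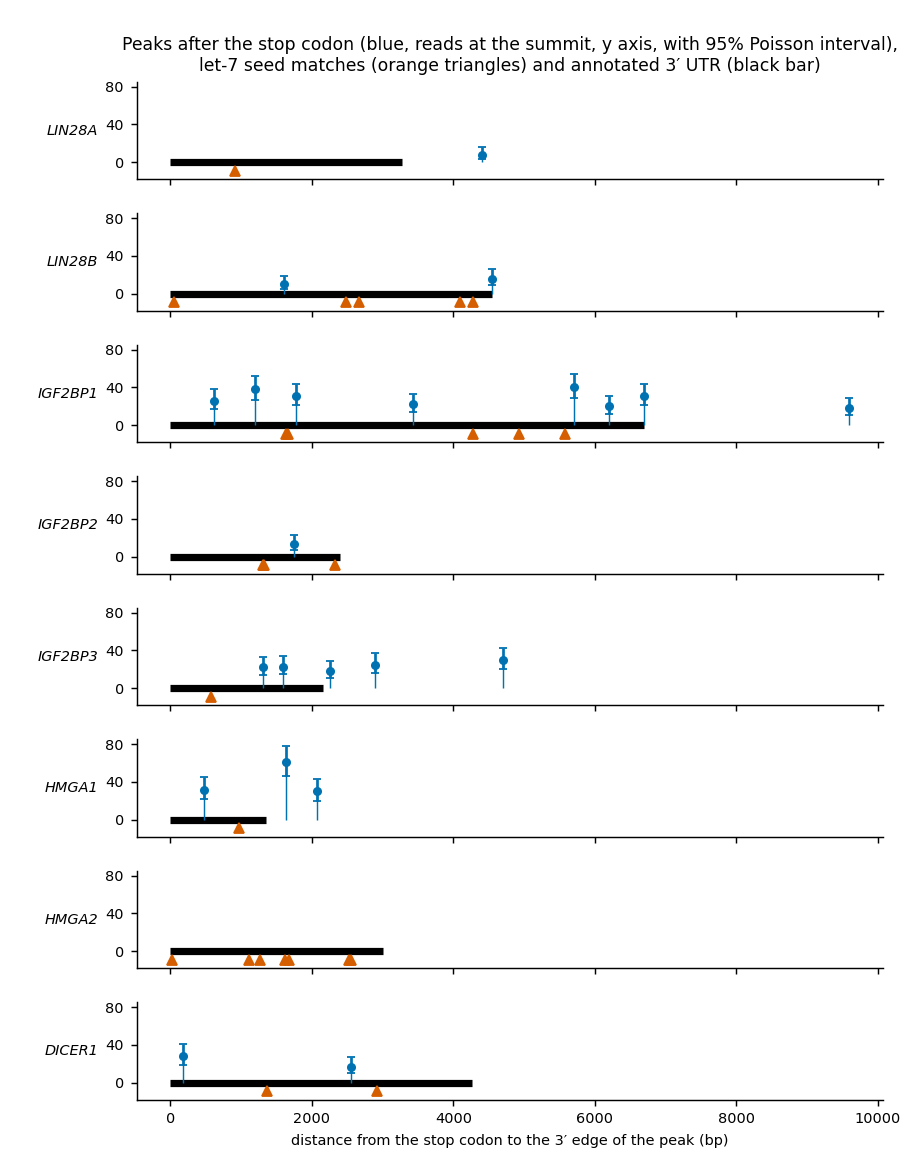
Reads at the summit (blue points, with 95% Poisson intervals) of each tandem 3′ UTR peak against the distance of its 3′ edge from the stop codon in bp, with let-7 seed matches as orange triangles and the annotated 3′ UTR as a black bar. IGF2BP1 has 8 peaks from 619 to 9591 bp, LIN28B has 2 on either side of 4 of its 5 let-7 matches, and HMGA2 has 7 matches and no peak.

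LIN28B, the let-7 inhibitor expressed in many NB tumours, had 2 tandem peaks in a 3′ UTR of 4549 bp. The proximal peak ended 1602 bp after the stop codon with 10 reads (4.8 to 18.4), and AATAAA, the commonest poly(A) signal (PAS) hexamer, began 20 bp before that edge. The distal peak ended 4548 bp after the stop codon, 1 bp from the annotated end, with 16 reads (9.15 to 26.0) and AATAAA 25 bp before the edge. The 2 intervals overlap, so the heights could not be told apart. The proximal edge left 1 of the 5 let-7 sites upstream, the one at 51 bp, and 4 downstream. Another peak of 10 reads (4.8 to 18.4) ended just upstream of the stop codon and had no hexamer. It lay 159 bp from the end of a shorter annotated transcript. The distal peak, the taller of the 2 tandem peaks, was low against other genes, where the tallest tandem peak had a median of 25 reads. The LIN28B value stood at percentile 22.2 of 13446 genes.

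IGF2BP1, which binds and stabilises mRNAs such as MYC and is itself a classic let-7 target, had the richest 3′ UTR of the set. Of its 8 tandem peaks, 7 lay in the 3′ UTR of 6701 bp and 1 past the gene, and this number placed it at percentile 99.8 of detected genes. Of 778 detected genes with a 3′ UTR within 25% of that length, itself included, 11 (1.41%) had 8 or more, and the median was 3. The first peak ended 619 bp after the stop codon with 26 reads (17.0 to 38.1). It was 379 bp wide and had no hexamer in the 100 bp before its edge, the only part searched. The second ended at 1199 bp with 38 reads (26.9 to 52.2) and AGTAAA 32 bp before it. Both edges lay ahead of all 5 let-7 sites.

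The middle pair of IGF2BP1 peaks followed the sites at 1639 and 1657 bp and preceded the other 3. One ended at 1771 bp with 31 reads (21.1 to 44.0), and its nearest ATTAAA was 81 bp away. The other ended at 3435 bp with 22 reads (13.8 to 33.3) and AAGAAA 19 bp before it. Past the last site, the peak at 5709 bp had 40 reads (28.6 to 54.5) with ATTAAA 14 bp before its edge, and was the tallest of the 8. That hexamer lies in an A-rich stretch that runs across the edge, with 15 A of 25 downstream. The next was the peak at 6200 bp with 20 reads (12.2 to 30.9) and AATAAA 17 bp before it, and then the peak at 6696 bp, 5 bp from the annotated end, with 31 reads (21.1 to 44.0) and AATAAA 24 bp before it. A final peak of 18 reads (10.7 to 28.4) lay 2890 bp past the gene, with ATTAAA 13 bp before it and 20 A in a run of 25 bases downstream. Only this peak and the tallest one had intervals that narrowly missed each other. Transcripts ending at these 8 edges would carry 0 of 5 sites in 2 cases, 2 of 5 in 2 cases and 5 of 5 in 4 cases.

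IGF2BP2 and IGF2BP3, the paralogues of IGF2BP1, differed from it and from each other. IGF2BP2 had 1 tandem peak, 1749 bp after the stop codon in a 3′ UTR of 2401 bp, with 14 reads (7.65 to 23.5), no hexamer, and 21 A in 25 bases downstream. This peak was 312 bp wide, and only the 100 bp before its 3′ edge were searched for a hexamer. That edge followed the let-7 sites at 1311 and 1326 bp and preceded the one at 2329 bp. IGF2BP3 had 5 tandem peaks, at percentile 96.0 of detected genes. Their edges lay 1310, 1585, 2257, 2899 and 4703 bp after the stop codon, with 22, 23, 18, 25 and 30 reads. These heights did not separate, since the interval of the tallest was 20.2 to 42.8 and that of the lowest 10.7 to 28.4. All 5 summits also lay inside MALSU1, a mitochondrial ribosome assembly gene on the opposite strand, and 2 of the 5 had a hexamer when read for IGF2BP3 (ATTAAA 78 bp and AATGAA 24 bp before the edge), against 3 of 5 when read on the other strand. The list gives no strand, so which gene these peaks belong to cannot be told apart. The single let-7 site of IGF2BP3, 567 bp after the stop codon, preceded every one of them.

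HMGA1 encodes an architectural chromatin protein of the AT-hook family and had 3 tandem peaks in and past its 3′ UTR of 1347 bp. The proximal peak ended 468 bp after the stop codon, with 32 reads (21.9 to 45.2) and no hexamer, ahead of the let-7 site at 967 bp. The second peak was 406 bp wide and ran across the annotated gene end, with its 3′ edge 282 bp past it. It had 61 reads (46.7 to 78.4) and was the tallest peak among the 127. AATATA lay 94 bp before its edge, and only the 100 bp before that edge were searched, so sequence further upstream in this peak was not. The interval of this second peak lay above that of the proximal peak and above that of the last peak, 727 bp past the gene with 30 reads (20.2 to 42.8). The last 2 of these summits lay inside SMIM29 on the opposite strand, and neither had a hexamer of any kind when read on that strand. The last peak had no hexamer when read for HMGA1 either. The list gives no strand, so which gene these 2 peaks belong to cannot be told apart. Among tallest tandem peaks, the HMGA1 value, which is that of the second peak, stood at percentile 96.2.

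DICER1, the RNase that releases mature let-7 and also carries let-7 matches, had 2 tandem peaks in a 3′ UTR of 4270 bp and none at its annotated distal end. The proximal one ended 175 bp after the stop codon, 2 bp from an annotated transcript end, with 28 reads (18.6 to 40.5) and AATAAA 25 bp before the edge. It preceded both let-7 sites, at 1363 and 2924 bp. The other ended at 2560 bp with 17 reads (9.9 to 27.2), no hexamer and an overlapping interval. The coding sequence of DICER1 held another 5 let-7 matches, and that of LIN28B held 1. The coding sequences of the other members held 0.

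LIN28A and HMGA2 had almost no peaks. LIN28A had no peak within its gene, and 1 peak of 8 reads (3.45 to 15.8) lay 1134 bp past its end. HMGA2, the AT-hook paralogue with the most let-7 sites of the set, had 1 peak of 8 reads (3.45 to 15.8) in intron 3 and none in its 3′ UTR of 2999 bp. Dropping the cutoff on −log10 q added no peak to either gene. The lowest member peaks of the main set had 7 reads. The number needed rises with the local background, so ends with fewer reads can be missing from the list. As the list pools 3 groups, a low height and use in some libraries only could not be separated.

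Across the members, 13 of the 25 let-7 sites lay past the first tandem peak of their gene and 5 lay before it, while the 7 sites of HMGA2 had no peak to be set against. Of the 5 members with 2 or more tandem peaks, 4 (LIN28B, IGF2BP1, HMGA1 and DICER1) had at least 1 site past the first peak, against 68.9% of the 1886 genes with 2 or more tandem peaks and a site. The exception was IGF2BP3. With 5 genes this share cannot be set apart from the background. In 4 cases a tandem peak preceded every site of its 3′ UTR: 2 in IGF2BP1, 1 in HMGA1 and 1 in DICER1. By gene this is 3 of the 5, against 63.9% of the same 1886 genes.

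The 12 hexamers searched in the 100 bp before the 3′ edge were AATAAA and variants of it that differ at 1 base. In peaks wider than this window, the sequence further upstream was not searched. The variants at the first base were TATAAA, then also CATAAA, then also GATAAA. Those at the second base were ATTAAA, then also AGTAAA, then also ACTAAA. Further along the motif stood AAGAAA (position 3), next came AATGAA (position 4), and at position 5 the variants were AATATA, then also AATACA, then also AATAGA. Of the 30 tandem and transcript-end peaks of the members, 20 (66.7%, exact 95% interval 47.2% to 82.7%) had at least 1 of them, against 74.3% of 40716 such peaks over all genes. The background lies inside the interval. Of the 22 tandem peaks, 9 had AATAAA or ATTAAA, and 7 of those began 10 to 30 bp before the edge. Any of the 12 hexamers was present at 14 of the 22 on the strand of the member gene, and at 9 on the other strand.

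Transcript ends inside the genes added 8 peaks. In IGF2BP1, a peak of 18 reads (10.7 to 28.4) in intron 5 ended 21 bp from the end of an annotated short transcript. AAGAAA lay 18 bp before its edge. A peak of 17 reads (9.9 to 27.2) followed 661 bp past that annotated end with AATAAA 28 bp before it. In IGF2BP3, a peak of 14 reads (7.65 to 23.5) in intron 5 ended 4 bp from an annotated end, with AGTAAA 33 bp before it. In IGF2BP2, a peak of 10 reads (4.8 to 18.4) in intron 9 ended 17 bp from an annotated end. It had ATTAAA 73 bp before its edge and 24 A in the 25 bases downstream. The LIN28B case is the peak before the stop codon given above.

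DICER1 had 3 of the 8. The peak in intron 3 had 19 reads (11.4 to 29.7) and lay 18 bp from an annotated end, with AATAAA 24 bp before its edge. The peak in intron 23 had 13 reads (6.92 to 22.2) and lay 5 bp from an annotated end, with ATTAAA 20 bp before its edge. Between them, a peak of 11 reads (5.49 to 19.7) lay 203 bp from an annotated end with no hexamer and 18 A of 25 downstream. Of the 5 coding let-7 matches, 1 lay between the first and the second of these 3 edges, 3 between the second and the last, and 1 past the last. The windows at the outer 2 are shown on the transcript strand with the hexamer in capitals, because they mark annotated premature ends of the gene that makes let-7.
DICER1 intron 3, chr14:95132031-95132060: aaAATAAAaaatataaaatgtgaacctaag
DICER1 intron 23, chr14:95095343-95095372: agATTAAAagcaatgatttcacaagaaggt

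Most of the 36 LIN28B peaks were intronic. LIN28B had 32 such peaks in a gene of 146.7 kb, with 7 to 32 reads and a median of 17. Its number stood at percentile 99.2 of the 1224 detected genes within 25% of its length, whose median was 12. Here and for the other members, detected genes were matched by length only. The part of read density in these counts was not tested. The 5′ side held more and taller peaks: with the gene divided into 3 equal segments, 18 lay in the 5′ segment with a median of 21 reads, 6 in the middle with 11.5, and 8 in the 3′ segment with 14. Over the 63157 intronic peaks of all 5039 detected genes of at least 50000 bp, the 3 segments held 39.9%, 32.3% and 27.8%, with medians of 13, 11 and 11 reads. The local background of the peaks moved the same way, from 0.72 to 4.82 reads in the 5′ segment of LIN28B to 0.337 to 1.1 in the 3′ segment, and its part in the heights was not tested.

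The tallest LIN28B intronic peak had 32 reads (21.9 to 45.2), 11571 bp from the gene start. It and 6 others lay in the first 20491 bp, ahead of the start of the canonical transcript, in introns of longer transcripts. Of these 7, the first overlapped LIN28B-AS1 on the opposite strand and the next 2 overlapped a lncRNA gene on the same strand. In all, 11 intronic peaks of LIN28B had 20 or more reads: 29, 23, 30, 22, 24 and 32 reads from 5129 to 11571 bp of the gene start, 21 reads at 21641 bp, and 29, 21, 22 and 21 reads from 27287 to 39871 bp. None of this height lay further 3′. Those at 6874, 29220, 30965 and 39871 bp had no hexamer, and the others of this height had one. The peak at 30965 bp also had 23 A of 25 downstream, a kind of peak the study removed. The windows of the 4 tallest with AATAAA or ATTAAA within 30 bp of the edge are shown with the hexamer in capitals; in these it began 12 to 29 bp before the edge.
LIN28B, 30 reads, chr6:104943007-104943036: acAATAAAaagtttgttgtgaaattagtca
LIN28B, 24 reads, chr6:104945964-104945993: caAATAAAatttctatttgtaatatggttg
LIN28B, 32 reads, chr6:104948174-104948203: gtATTAAAtacaaggcctggcacggtggct
LIN28B, 29 reads, chr6:104963873-104963902: taAATAAAaatatgagtgtcaaaccactta

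**Figure D3:**
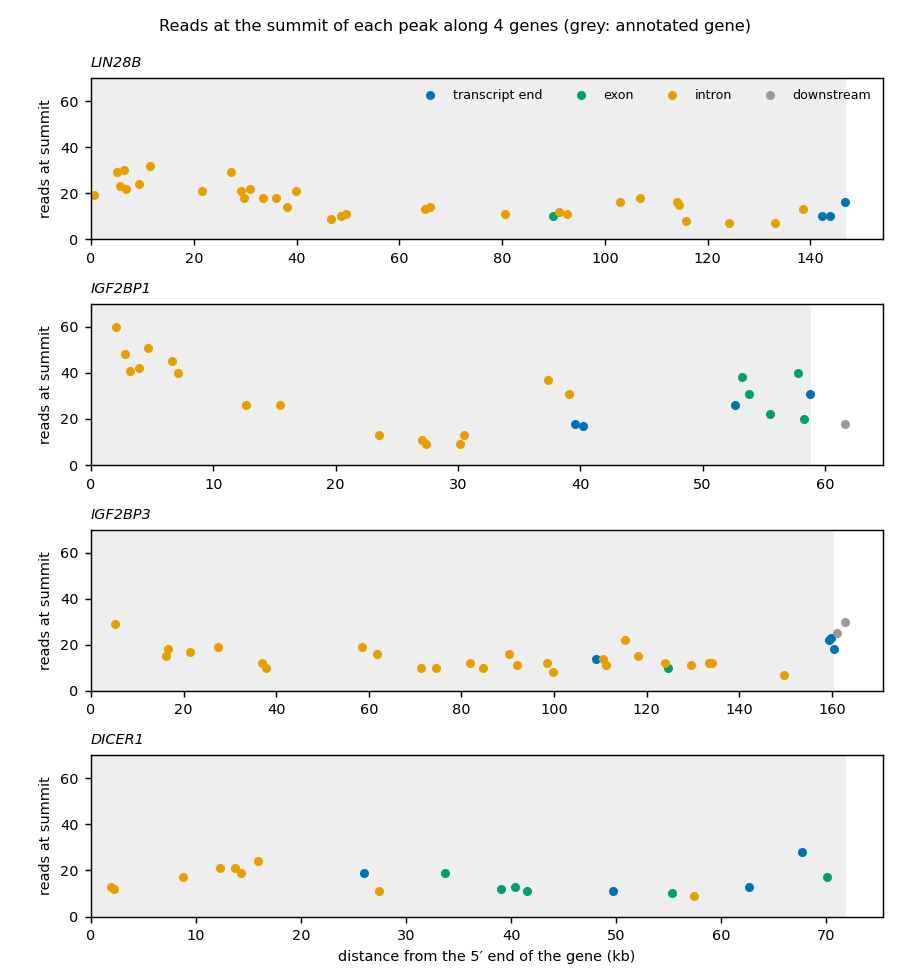
Reads at the summit of each peak (y axis) against distance from the 5′ end of the gene in kb (x axis) for LIN28B, IGF2BP1, IGF2BP3 and DICER1, coloured by class, with the annotated gene in grey. In LIN28B the 11 intronic peaks of 20 or more reads lie within 39871 bp of the gene start, and in IGF2BP1 the tallest, at 60 reads, lies 2043 bp from it.

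IGF2BP1 had 16 intronic peaks in 58.76 kb, at percentile 99.6 of 1873 genes of like length (median 5). The first 7, all in intron 2 and 2043 to 7093 bp from the gene start, had 60, 48, 41, 42, 51, 45 and 40 reads. Their local background was the highest among the members, from 14.0 to 15.8 reads, so the deposited fold of these peaks was only 2.73 to 3.63. The next pair had 26 reads each at 12711 and 15466 bp, inside a lncRNA of the opposite strand. After a stretch with peaks of 9 to 13 reads, 2 stood out in intron 5. One had 37 reads (26.1 to 51.0), 19 A of 25 downstream and no hexamer. The other had 31 reads (21.1 to 44.0) and AATAAA 9 bp before its edge. That hexamer lies in an A-rich stretch that runs across the edge, with 12 A of 25 downstream. The summit of the same peak lay inside RNU6-826P, an annotated snRNA gene on the same strand. Both peaks had a background under 2 reads, and their folds of 13.6 and 11.4 were the highest of the IGF2BP1 intronic peaks.

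IGF2BP3 had 26 intronic peaks in 160.3 kb (percentile 93.3 of 1125 genes of like length, median 13), mostly low, with a median of 12 reads. Its tallest had 29 reads (19.4 to 41.6), 5104 bp from the gene start in intron 2, and 1 other reached 20, a peak of 22 reads (13.8 to 33.3) in intron 5. Some of the 26 had 22 or 23 A of 25 downstream and no hexamer, a kind of peak the study removed. DICER1 had 9 in 71.78 kb (percentile 73.3 of 1694, median 6), of which 7 lay in intron 1 with 12 to 24 reads. The DICER1 peaks of 20 or more had 21, 21 and 24 reads at 12237, 13682 and 15895 bp from the gene start. IGF2BP2 had 6 in 181.9 kb, which was low for its length (percentile 16.6 of 975, median 14), and its tallest had 14 reads (7.65 to 23.5). Of these 6, 3 lay inside IGF2BP2-AS1 on the opposite strand. The HMGA2 peak was 1 against a median of 11.5 (percentile 3.26 of 1228), and LIN28A and HMGA1 had no intronic peak, in genes of 18.91 and 9.359 kb.

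The sequence beside the intronic peaks of the members as a set was close to that of other genes. A hexamer preceded 49 of the 90 (54.4%, exact 95% interval 43.6% to 65.0%), against 57.4% of 78315 intronic peaks over all detected genes, and AATAAA or ATTAAA preceded 30 (33.3%, 23.7% to 44.1%), against 33.8%. At least 18 A in 25 bases within 50 bp downstream, a kind of sequence with which an oligo(dT) primer can pair inside a transcript, were found at 26 (28.9%, 19.8% to 39.4%), against 27.4%. Their part in the peaks was not tested. LIN28B had a hexamer at 20 of 32, and DICER1 at 9 of 9. IGF2BP3 had one at 9 of 26, and 11 of the other 17 had the A-rich sequence, which makes 11 of the 19 such peaks over all members. IGF2BP1 had a hexamer at 6 of 16, each time AATAAA or ATTAAA. Intervals for single genes would be wide at these counts, and no test was made between members.

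**Figure D4:**
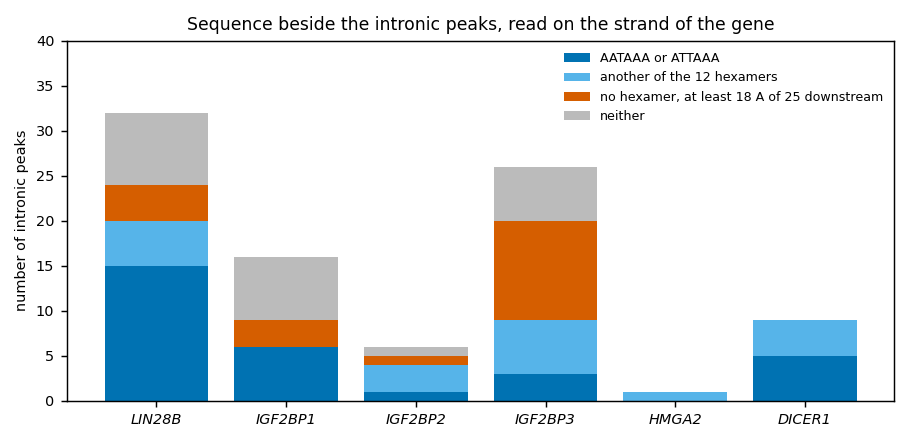
Number of intronic peaks (y axis) of the 6 members that have any, split by the sequence beside them on the strand of the gene: AATAAA or ATTAAA, another of the 12 hexamers, A-rich sequence without a hexamer, or neither. IGF2BP3 holds 11 of the 19 A-rich peaks without a hexamer, LIN28B holds 15 of the 30 with AATAAA or ATTAAA, and all 9 of DICER1 have a hexamer.

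Other genes of the pathway mostly had transcript-end peaks. Of 14 genes that process or silence with let-7, 14 had a transcript-end peak, against 64.0% of all protein-coding genes, with a median of 27.5 reads for the tallest, against 25 over all detected genes. XPO5, which exports the precursor from the nucleus, was highest at 91 reads, and TRIM71, an mRNA repressor and let-7 target, was lowest at 12. Of 14 other let-7 targets, 13 had one, from MYCN at 100 reads to MYC at 9, and CCND2 had none. Let-7 hairpins lay inside 5 annotated host genes of the list, all with a transcript-end peak, from MIRLET7A1HG at 47 reads to MIRLET7BHG at 17. Among the 7 processing genes with 2 or more tandem peaks and a let-7 site, 3 had a site past the first peak, and among the 10 such targets, 7 did, against 68.9% over all such genes.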

How the data were processed

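Poly(A) 3′-seq was performed on RNA of IMR-32 cells with a kit that begins reading where the transcript meets its poly(A) tail. Per the labels and methods, trimmed reads were mapped by the authors with STAR 2.5.1b to GRCh38, keeping up to 20 placements, samples were merged, and MACS2 2.1.1 called peaks once with reads extended to 100 bp and no control. The deposited list gives for each peak a fold enrichment, the ratio of pileup plus 1 to local background plus 1, the −log10 p-value, and a score that is the −log10 q-value, plus the summit offset. A whole-number copy of that score was not used. No value belongs to a single library, so groups were not compared, no test was made and p-values are not given.

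The pileup and background were solved from the deposited fold and −log10 p (largest misfit 0.000172; 100% of 19956 simulated peaks recovered). Gencode release 44 was used, whereas the study used release 27. A gene with a transcript-end peak was called detected. Percentiles count ties at their midpoint and describe 1 pooled set, in which genes are not replicates. No percentile was matched on read density. Poisson and binomial intervals are exact and cover counting error only. Introns are numbered in the canonical transcript. Hexamers were those the study lists, and peaks with at least 22 of 25 A and no hexamer, which the study removed, were kept. Removing them as an alternative left 120 of the 127 member peaks, and the tandem peaks stayed at 22. For each member, every tandem and transcript-end peak, the tallest intronic peak and every intronic peak of 20 or more reads were named; of the other gene lists, the highest, the lowest and those with none. Of 7 let-7 host genes listed, 1 was not found in the annotation and 1 held no let-7 hairpin. Members and lists were chosen with earlier results of these data known. Scripts used Python with pandas 2.3.3, numpy 2.4.6, scipy 1.17.1, pysam 0.24.0 and matplotlib 3.10.9.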

Additional observations from a re-analysis of the deposited data

How the results depend on the processing

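Of 42 counts and shares recomputed under alternatives, 33 stayed within 1.5 times the count, or within the interval of the share, given in the report. Requiring −log10 q of at least 20 left 6 member peaks, 4 tandem peaks, 2 members with a transcript-end peak, 1 member with 2 or more tandem peaks, an intronic share of 33.3% and 1 let-7 site before a first tandem peak. AATAAA and ATTAAA alone preceded 43.3% of the tandem and transcript-end peaks, and 8mers alone gave 9 let-7 sites. Leaving out peaks inside a gene of the opposite strand, an alternative chosen after seeing the data, left 3 members with 2 or more tandem peaks, and IGF2BP3 and HMGA1 then had fewer than 2. The 8 percentiles rose with the wider background: against all protein-coding genes instead of detected ones, the percentile in number of tandem peaks became 44.5 for LIN28A and IGF2BP2, 66.4 for LIN28B and DICER1, 99.9 for IGF2BP1, 97.3 for IGF2BP3, 83.1 for HMGA1 and 16.5 for HMGA2. No paired analysis was possible because reads of both replicates were merged before peak calling, and for the same reason no library could be left out. Most member peaks held few reads, and their heights carry wide counting intervals.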
